A study of Mus musculus with 6 samples.

Results

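Genes of leukocyte adhesion to the vessel wall, 9 in all, were followed in infarct tissue: the selectins Sele and Selp, the selectin ligand Selplg, the integrin ligands Icam1, Icam2 and Vcam1, and the junction proteins Pecam1, Cdh5 and F11r. These 9 of 36047 genes were chosen by name, with earlier results of these data known. All 9 were among the 20094 genes with enough counts to be tested. The libraries came from the infarct area of C57BL6 mice aged 12 weeks, 48 h after ischemia/reperfusion (I/R). In the methods of the study the animals were female, the left anterior descending artery was occluded and reopened, and treatment was given by oral gavage directly after surgery and then daily. The agent was LGK974, an inhibitor of the acyltransferase Porcupine without which Wnt proteins are not secreted, in 3 samples, and the DMSO vehicle in citrate buffer in the other 3. The labels only number the replicates, but the study counts 6 animals, 3 per group, for RNA sequencing. The replicates are therefore taken as 1 mouse each, and p-values measure only the spread between these samples. No uninjured heart was analysed here, so the values compare treated with untreated infarcts only. The study asked how blocking Wnt secretion affects the healing infarct. The tissue is a mixture of cells, and fewer cells of a type and less RNA per cell cannot be told apart.

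Leukocytes leave the blood in steps. Selectins on activated endothelium catch ligands such as PSGL-1, the product of Selplg on leukocytes, and let cells roll. Chemokines then switch on leukocyte integrins, which hold on to ICAM and VCAM proteins of the endothelium, and the cells pass between endothelial cells whose contacts are built from VE-cadherin (Cdh5), CD31 (Pecam1) and JAM-A (F11r). Sele, Selp, Vcam1 and Icam1 are known to be inducible by inflammatory signals through NF-κB, whereas Cdh5, Pecam1 and Icam2 are carried by resting endothelium. Several are not confined to it, since platelets hold Selp and Pecam1, leukocytes carry Pecam1 and F11r, and fibroblasts and macrophages can express Icam1 and Vcam1.

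The libraries held 41579787 to 80398211 estimated counts, and 28.2 to 53.7% of those joined to genes were mitochondrial. DMSO replicate 1 stood apart. Its median level on 1503 olfactory, vomeronasal and bitter taste receptor genes, most of which are known mainly from sensory tissue, was 35.3 counts per kb, against 12.8 and 3.24 in DMSO replicates 2 and 3 and 12.1, 4.70 and 3.23 in LGK974 replicates 1, 2 and 3. These values, which are not scaled to library depth, are called the background of a library here. Endothelium was present in every library: all 18 endothelial marker genes were tested, 11 were higher and 7 lower with LGK974, and their median log2 fold change was 0.05, with summed levels of 802 to 901 CPM (scaled counts relative to library size) under LGK974 and 725 to 1001 CPM under DMSO. The most abundant were Flt1, a VEGF receptor, at 138 ± 24.9 against 164 ± 26.0 CPM (SD, n = 3 each), and the phosphatase gene Ptprb at 141 ± 11.4 against 151 ± 38.5 CPM. Leukocyte markers were different, as 15 of 15 were higher with LGK974 (median log2 fold change 0.96), with summed levels of 624 to 793 CPM against 331 to 408 CPM. Lyz2, the lysozyme gene of myeloid cells, stood at 180 ± 27.3 against 73.3 ± 18.4 CPM. The study reported the opposite direction for cells. Its flow cytometry of whole hearts 2 days after I/R found fewer leukocytes and inflammatory monocytes with LGK974. Marker RNA of the infarct area is a different measure from cell numbers, and the reason for the difference was not tested. Platelet markers had a median of −0.24 (3 of 9 tested higher), neutrophil markers 0.01 (3 of 6), fibroblast markers 0.54 (9 of 10), mural cell markers 0.09 (4 of 8), cardiomyocyte markers −0.43 (1 of 12), mesothelial markers −0.44 (2 of 8) and lymphatic endothelial markers −0.0027 (3 of 6).

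At an adjusted p-value threshold of 0.05, edgeR called 0% of the tested genes, and thus 0 of the 9 adhesion genes. Their adjusted p-values lay between 0.368 and 0.981, and 2 of the 9, Vcam1 and Selplg, had an unadjusted p-value under 0.05, both higher with LGK974 (of all tested genes, 6.26% were higher and 7.18% lower at that level). DESeq2 called 0 of the 9 and 1.41% of all genes with an adjusted p-value, and limma-voom called 0 as well. An adjusted p-value that misses the threshold does not show that a gene did not differ, and the 95% intervals given with each gene bound the differences these samples allow. The log2 fold change, LGK974 over DMSO, was above 0 in 9 of the 9, where 40.5% of all tested genes lay above 0. Cdh5 and Pecam1 lay close to 0, at 0.01 and 0.04. The count was 7 with at least 1 CPM in 3 libraries and 7 with background subtracted. On protein-coding transcripts it was 8, as it was without DMSO replicate 1. The median over all tested genes was −0.13 and that of the 9 was 0.33. The former was −0.06 with at least 1 CPM and −0.02 with background subtracted. In 3 of the 9, Sele, Selplg and Vcam1, every LGK974 mouse lay above every DMSO mouse, against 10.7% of all tested genes. None of the 9 was separated in the other direction, against 7.27% of all genes. LGK974 replicate 3 held the highest value of 8 of the 9 genes, and DMSO replicate 1 the lowest value of 5. How often these libraries were highest or lowest over all tested genes is not given here. LGK974 replicate 3 also had the lowest mitochondrial share, 28.2%, and DMSO replicate 1 the highest background. The 9 genes are not independent observations, since they were measured in the same libraries.

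**Figure D1:**
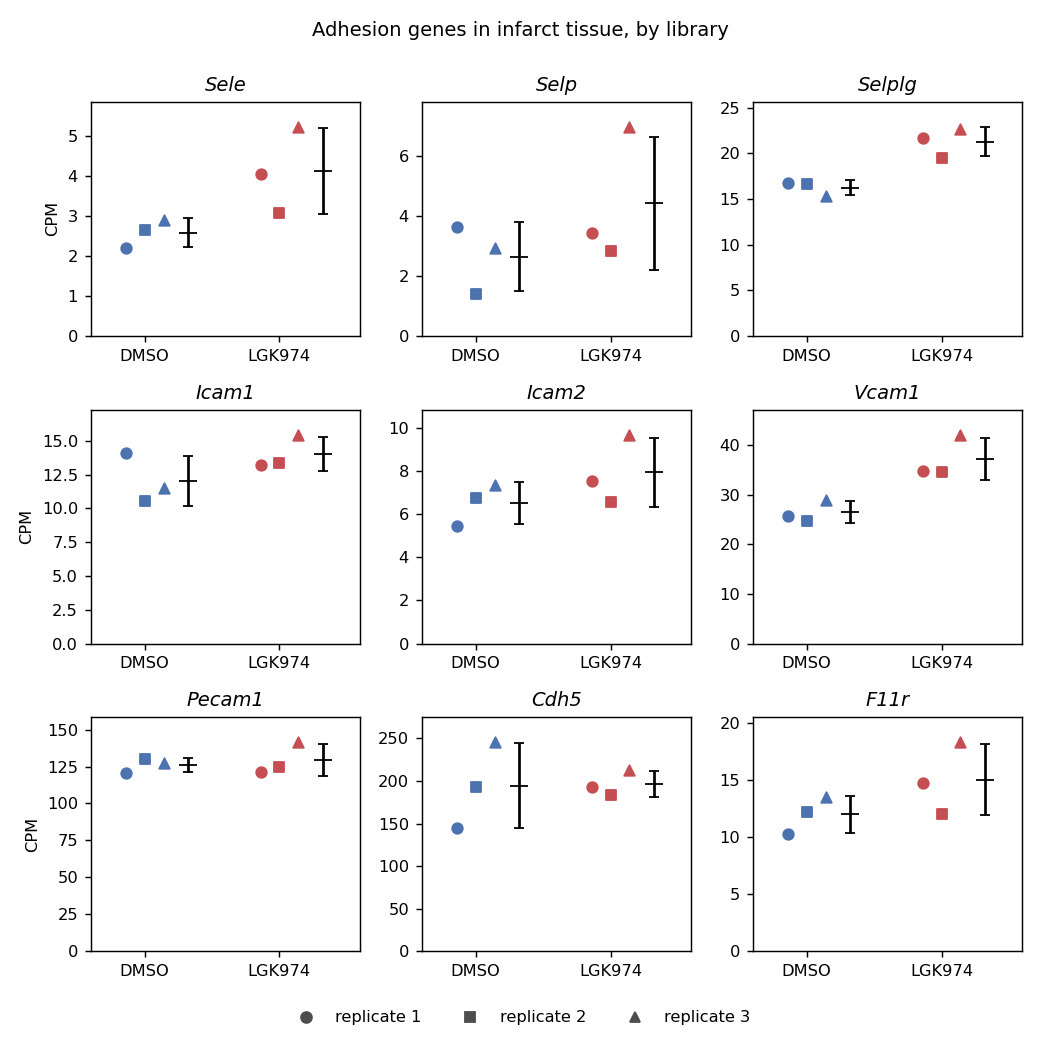
CPM (vertical axis, from 0) of each adhesion gene in each of the 6 libraries, with DMSO in blue and LGK974 in red; marker shapes give the replicate number and black bars the mean ± SD of 3 mice. Sele, Selplg and Vcam1 are separated between the groups, while Pecam1 and Cdh5 overlap, with Cdh5 spreading from 145 to 246 CPM among the DMSO mice.

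Promoters are given for orientation, as 250 bases up to the transcript start in RefSeq on GRCm38.p6. They are shown for the 4 of the 9 genes matched there, the inducible Sele, Selp and Icam1 and the junction gene F11r. No measurement of these libraries bears on the promoters themselves. The sequences run 5′ to 3′ on the plus strand, and capitals mark matches on either strand to GGNNNTTCC (a core of NF-κB sites), to the AP-1 letters TGANTCA, to the STAT letters TTCNNNGAA and to the TATA box. They were chosen with these sequences known.
Sele, chr1:164047984-164048233: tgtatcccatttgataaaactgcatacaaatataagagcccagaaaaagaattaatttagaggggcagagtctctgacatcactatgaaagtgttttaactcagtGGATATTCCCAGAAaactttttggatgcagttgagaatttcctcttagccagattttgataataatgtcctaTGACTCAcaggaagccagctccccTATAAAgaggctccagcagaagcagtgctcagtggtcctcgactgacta
Selp, chr1:164115014-164115263: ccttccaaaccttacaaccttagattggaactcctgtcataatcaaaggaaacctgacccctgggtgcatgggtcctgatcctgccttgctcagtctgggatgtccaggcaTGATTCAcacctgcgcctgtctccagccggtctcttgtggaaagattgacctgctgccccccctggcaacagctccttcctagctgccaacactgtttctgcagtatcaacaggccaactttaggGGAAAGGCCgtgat
Icam1, chr9:21015690-21015939: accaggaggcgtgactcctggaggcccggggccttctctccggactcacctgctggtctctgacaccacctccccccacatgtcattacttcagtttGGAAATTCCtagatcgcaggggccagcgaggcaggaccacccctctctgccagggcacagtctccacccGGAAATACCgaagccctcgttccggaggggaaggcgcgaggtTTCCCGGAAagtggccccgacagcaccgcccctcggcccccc
F11r, chr1:171437311-171437560: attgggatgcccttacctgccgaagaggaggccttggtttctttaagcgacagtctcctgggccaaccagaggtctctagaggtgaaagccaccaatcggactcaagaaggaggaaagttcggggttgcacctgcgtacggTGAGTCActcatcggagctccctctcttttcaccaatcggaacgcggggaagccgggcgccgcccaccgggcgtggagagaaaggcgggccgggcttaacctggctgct
The Sele promoter held the NF-κB-like letters beginning 145 bases before the start, overlapping a STAT-like match that begins at 140, then an AP-1-like match at 73 and a TATA box at 49. In Icam1, NF-κB-like matches began at 153 and, on the minus strand, at 84, and a STAT-like match at 42. Selp had an AP-1-like match at 139 and an NF-κB-like match on the minus strand at 14, and F11r had an AP-1-like match at 109. The NF-κB-like letters are loose, as 15.7% of 32851 promoter windows of 250 bases hold them, and the shares were 6.75% for the AP-1-like letters, 7.02% for the STAT-like letters and 12.4% for the TATA box. A match describes letters only and shows no binding.

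Sele encodes E-selectin, which activated endothelium makes. The gene lies on chromosome 1 from 164048234 to 164057677 (GRCm38, plus strand) and has 1 annotated transcript. Sele was at 4.05, 3.06 and 5.21 CPM in LGK974 replicates 1, 2 and 3 and at 2.19, 2.65 and 2.90 CPM in DMSO replicates 1, 2 and 3. All treated mice lay above all controls, but LGK974 replicate 2 and DMSO replicate 3 were close. The mean was 4.11 ± 1.08 CPM in treated and 2.58 ± 0.361 CPM in control mice (SD, n = 3 each). This gave a log2 fold change of 0.67 (SE 0.312, 95% interval −0.05 to 1.40, adjusted p = 0.37 by edgeR's test). These levels rest on few reads, with 164 to 344 counts under LGK974 and 87 to 128 under DMSO. In DMSO replicate 1, Sele had 0.848 times the background per kb, below the median of the receptor genes, whereas it stood at 3.43 and 12.5 times the background in DMSO replicates 2 and 3 and at 9.76 to 35.4 times under LGK974. With the background subtracted, Sele was at 0, 1.93 and 2.52 CPM in the DMSO mice and at 2.67 to 4.72 CPM in the LGK974 mice, and the fitted log2 fold change of 1.30 had a standard error of 1.19. Without DMSO replicate 1 the log2 fold change was 0.58.

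Selp encodes P-selectin, stored in granules of endothelium and platelets, on the same chromosome from 164115264 to 164150026. Its values were 3.45, 2.86 and 6.98 CPM under LGK974 and 3.64, 1.39 and 2.92 CPM under DMSO. The groups overlapped, and LGK974 replicate 3 stood above the other 5 mice. The log2 fold change was 0.74 (standard error 0.478, 95% interval −0.37 to 1.85, adjusted p = 0.457 by edgeR's test). It was 0.34 without LGK974 replicate 3, 0.42 without DMSO replicate 2 and 1.05 without DMSO replicate 1. Selp stood at 2.13, 2.71 and 19.0 times the background per kb in DMSO replicates 1, 2 and 3. Under LGK974 it was at 12.5 to 71.5 times. With the background subtracted, the log2 fold change was 1.03 (standard error 0.559). Platelet markers, which could carry Selp, were at summed levels of 43.7 to 49.9 CPM under LGK974 and 26.5 to 46.0 CPM under DMSO, and their part in Selp was not tested.

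Selplg, the gene of PSGL-1 on leukocytes, lies on chromosome 5 from 113818536 to 113832644 on the minus strand. It was at 21.7, 19.5 and 22.7 CPM under LGK974 and at 16.7, 16.7 and 15.3 CPM under DMSO. The groups did not overlap and the spread within each was small. The log2 fold change was 0.39 (standard error 0.14, 95% interval 0.07 to 0.72, unadjusted p = 0.0245, adjusted p = 0.368 by edgeR's test). Leukocyte markers were higher in the same mice, by 0.908 in their mean log2 CPM. Accordingly, the mean log2 ratio of Selplg to the 15 leukocyte markers was −0.465 ± 0.115 under LGK974 and 0.0637 ± 0.26 under DMSO (SD, n = 3 each), a difference of −0.529. The difference follows from these values and is given as a description, since the reference was chosen after they were seen. The ratio was 0.359 in DMSO replicate 1, and −0.134 and −0.0339 in DMSO replicates 2 and 3. It was taken on all transcripts. On protein-coding transcripts only, the log2 fold change of Selplg was 0.69 and the median of the leukocyte markers was 0.93. On all transcripts they were 0.39 and 0.96.

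Vcam1 encodes the ligand of the integrin VLA-4 and lies on chromosome 3 from 116109949 to 116129688 on the minus strand. It had the smallest p-value of the 9 genes. Its values were 34.8, 34.6 and 42.1 CPM under LGK974 and 25.7, 24.8 and 29.0 CPM under DMSO. Every treated mouse was above every control, and LGK974 replicates 1 and 2 were nearly equal. Treated mice averaged 37.2 ± 4.27 CPM and controls 26.5 ± 2.20 CPM (SD, n = 3 each), 1.40-fold apart, with a log2 fold change of 0.49 (standard error 0.151, 95% interval 0.14 to 0.84, unadjusted p = 0.0124, adjusted p = 0.368 by edgeR's test). Leaving out each mouse in turn gave 0.43 to 0.67, and the lowest adjusted p-value of any of the 9 genes in any fit was that of Vcam1 without DMSO replicate 3, at 0.121 by edgeR's test. Leukocyte and fibroblast markers, whose cells can express Vcam1, were higher in the same mice, and their part in Vcam1 was not tested.

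Icam1, the ligand of the leukocyte integrins LFA-1 and Mac-1, lies on chromosome 9 from 21015985 to 21028817. It was at 13.2, 13.3 and 15.5 CPM under LGK974 and 14.1, 10.5 and 11.5 CPM under DMSO. DMSO replicate 1 lay among the treated mice, so the groups overlapped. The log2 fold change was 0.22 (standard error 0.175, 95% interval −0.19 to 0.63, adjusted p = 0.534 by edgeR's test), 0.36 without DMSO replicate 1 and 0.12 without DMSO replicate 2.

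Icam2, an integrin ligand of resting endothelium, lies on chromosome 11 from 106377656 to 106388075. It was at 7.53, 6.57 and 9.68 CPM under LGK974 and 5.43, 6.76 and 7.34 CPM under DMSO, again with overlap. Its log2 fold change was 0.28 (standard error 0.231, 95% interval −0.25 to 0.82, adjusted p = 0.54 by edgeR's test). Without DMSO replicate 1 or without LGK974 replicate 3 it was 0.18, and without DMSO replicate 3 it was 0.48.

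The junction genes Cdh5 and Pecam1 were close to equal in mean. Cdh5, the gene of VE-cadherin on chromosome 8 from 104101625 to 104144511, was at 192, 184 and 213 CPM under LGK974 and 145, 193 and 246 CPM under DMSO. The DMSO mice held both the lowest and the highest value, and the log2 fold change was 0.01 (95% interval −0.51 to 0.54, adjusted p = 0.981 by edgeR's test), with a sign that turned in several alternative fits. Pecam1, the gene of CD31 on chromosome 11 from 106654217 to 106750628, was at 121, 125 and 141 CPM under LGK974 and 121, 130 and 127 CPM under DMSO. Its log2 fold change was 0.04 (95% interval −0.33 to 0.40, adjusted p = 0.92 by edgeR's test). The 95% intervals of Pecam1 and Cdh5 both overlapped that of Vcam1, 0.14 to 0.84, and differences between genes were not tested.

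F11r encodes JAM-A, which sits in tight junctions and on platelets and leukocytes, on chromosome 1 from 171437535 to 171464603. It was at 14.7, 12.1 and 18.3 CPM under LGK974 and 10.3, 12.2 and 13.5 CPM under DMSO. LGK974 replicate 2 lay below 2 of the DMSO mice, and the log2 fold change was 0.33 (standard error 0.205, 95% interval −0.15 to 0.80, adjusted p = 0.448 by edgeR's test). It was 0.53 without DMSO replicate 3 and 0.52 without LGK974 replicate 2, but 0.24 without DMSO replicate 1 and 0.23 without LGK974 replicate 3.

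**Figure D2:**
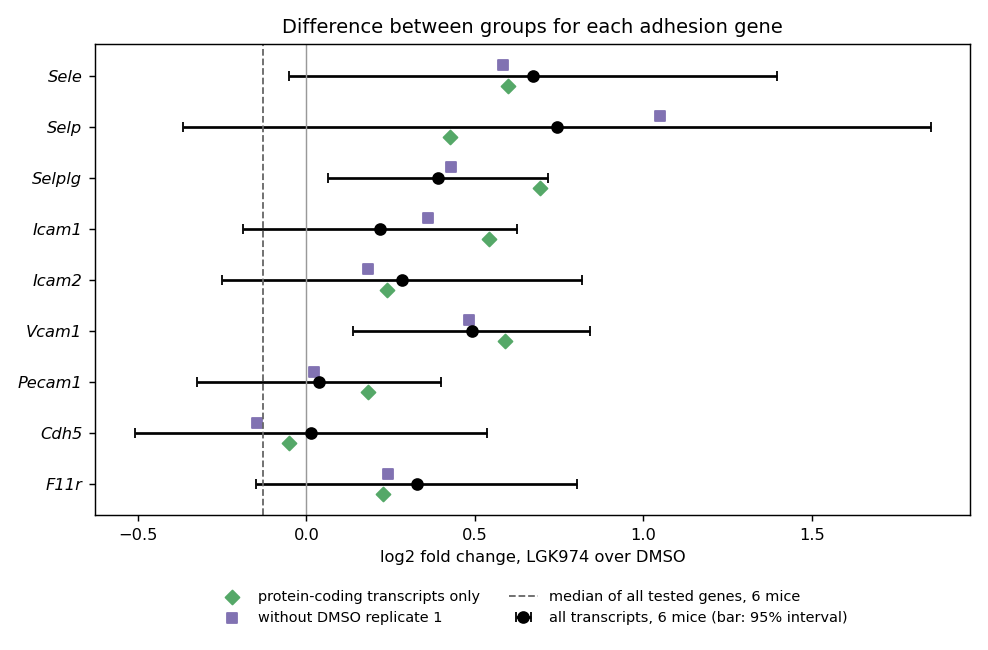
Log2 fold change of LGK974 over DMSO (horizontal axis) for the 9 adhesion genes, with 95% intervals of edgeR's fit on all 6 mice in black, the fit on protein-coding transcripts as green diamonds and the fit without DMSO replicate 1 as violet squares; the dashed line is the median of all tested genes at −0.13. Only the intervals of Selplg and Vcam1 lie wholly above 0, and Icam1 and Selplg move up on protein-coding transcripts.

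Because endothelium can differ in amount between pieces of tissue, each gene was also set against the mean of the 18 endothelial markers within its own library, a ratio that depends little on how libraries are scaled. The mean log2 CPM of these markers was 4.998 ± 0.0816 under LGK974 and 4.92 ± 0.203 under DMSO (SD, n = 3 each; difference 0.0746, exact permutation test, p = 0.7). Relative to them, Vcam1 was at 0.24, 0.0872 and 0.369 under LGK974 and at −0.0128, −0.257 and −0.249 under DMSO on the log2 scale. Every treated mouse was above every control, with a difference of 0.405 (two-sided exact permutation test, p = 0.1). Sele was separated as well, with −2.72, −3.21 and −2.53 against −3.30, −3.26 and −3.36, a difference of 0.488 (exact permutation test, p = 0.1), although LGK974 replicate 2 lay only just above the controls. Of all tested genes, 7.5% were separated upwards and 8.68% downwards on this scale, against 2 and 0 of these 9. The ratio was tested for each of the 9 genes, and no p-value could fall below 0.1. The other 7 overlapped. Their differences were 0.556 for Selp, 0.304 for Selplg, 0.229 for F11r, 0.183 for Icam2, 0.142 for Icam1, −0.031 for Cdh5 and −0.0406 for Pecam1, with exact permutation p-values from 0.2 to 1. With one mouse left out the range was 0.226 (without DMSO replicate 2) to 0.891 (without DMSO replicate 1) for Selp, 0.16 (without DMSO replicate 3) to 0.425 (without DMSO replicate 1) for Selplg and 0.0113 (without DMSO replicate 3) to 0.356 (without DMSO replicate 1) for Icam1. For F11r it was 0.104 to 0.397 and for Icam2 0.0616 to 0.325, in both cases lowest without LGK974 replicate 3 and highest without LGK974 replicate 2. With Kdr and Tie1 alone as the endothelial reference, the differences of Vcam1 and Sele were 0.345 and 0.428, and the groups overlapped for both.

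**Figure D3:**
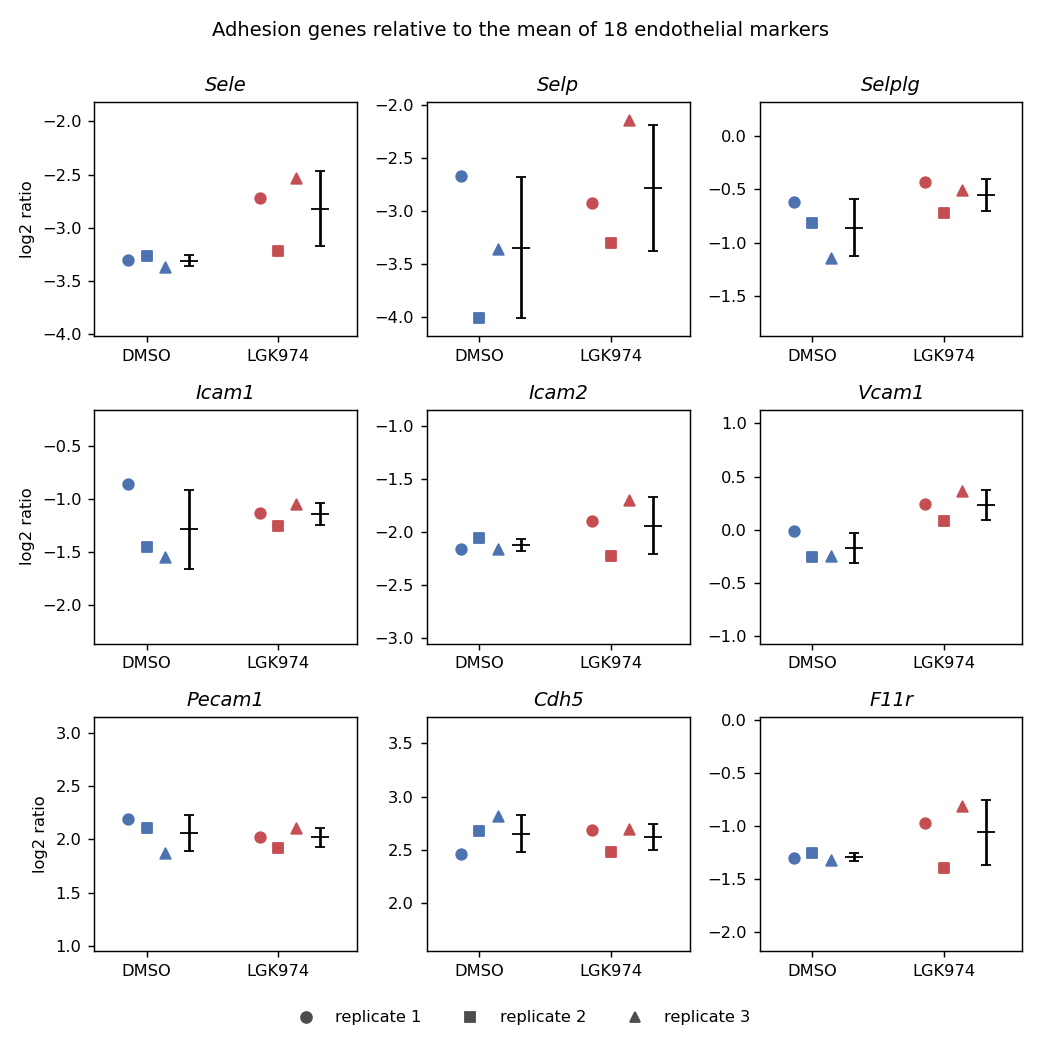
Log2 ratio of each adhesion gene to the mean of 18 endothelial markers in the same library (vertical axis, each panel spanning the same range of log2 units), by group, with the replicate number as marker shape and black bars for mean ± SD of 3 mice. Vcam1 and Sele are higher in every LGK974 library, and Cdh5 and Pecam1 lie at the same level in both groups within their spread.

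The counts of a gene also include transcripts that keep an intron, which do not encode the protein. Of the 9 genes, 7 have at least 1 transcript annotated as a retained intron or otherwise non-coding. In DMSO replicate 1 such transcripts held 59.7% of the counts of Icam1, 51.4% of Selplg, 49.0% of Pecam1, 34.8% of Vcam1 and 8.32% of Icam2, the highest share of any library in these 5 genes. In the other 5 libraries the shares were 17.4 to 38.0% for Icam1, 13.8 to 34.4% for Selplg, 19.6 to 37.1% for Pecam1, 10.7 to 19.6% for Vcam1 and 0.785 to 1.80% for Icam2. F11r went the other way, with its lowest share, 1.26%, in DMSO replicate 1 and 2.31 to 7.69% in the other 5 libraries. Selp had its highest share, 52.8%, in LGK974 replicate 2. The next highest shares of Icam1, Selplg, Vcam1 and Pecam1 were those of DMSO replicate 2. Such shares over all other genes are not given here. DMSO replicates 1 and 2 also had the highest background on receptor genes, at 35.3 and 12.8 counts per kb. LGK974 replicate 1, at 12.1 counts per kb, had shares of 22.7% for Icam1, 17.98% for Selplg and 11.7% for Vcam1, against 38.0%, 34.4% and 19.6% in DMSO replicate 2. The background is not scaled to depth, and LGK974 replicate 1 held 80398211 estimated counts against 48517100 in DMSO replicate 2. Relative to depth, their backgrounds are thus not alike. The part of the background in these shares was not tested.

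Counted on protein-coding transcripts only, an approach chosen after these shares were seen, Icam1 was at 10.99, 11.4 and 12.7 CPM under LGK974 and at 7.06, 7.10 and 9.96 CPM under DMSO. The groups no longer overlapped, and the log2 fold change went from 0.22 to 0.54 (standard error 0.2, unadjusted p = 0.0273, adjusted p = 0.322 by edgeR's test). Selplg was at 19.1, 16.8 and 20.5 against 10.1, 11.9 and 12.9 CPM, with a log2 fold change of 0.69 in place of 0.39 (standard error 0.164, unadjusted p = 0.0031, adjusted p = 0.263). Vcam1 was at 33.1, 32.7 and 37.3 against 20.8, 21.6 and 26.1 CPM, with 0.59 in place of 0.49 (standard error 0.141, unadjusted p = 0.0034, adjusted p = 0.263). Sele, whose single transcript is coding, stayed separated at 0.60. Thus 4 of the 9 genes were separated upwards on coding transcripts, against 11.4% of the 17179 genes tested that way, and 0 of the 9 passed an adjusted p-value of 0.05. Pecam1 was at 0.18 and Cdh5 at −0.05, both with overlap. For Selp the shares of its transcripts were unstable, from 0 to 52.8% non-coding, and its log2 fold change was 0.42 (standard error 0.63). With the background subtracted instead, Icam1 was at 0.15, Selplg at 0.29 and Vcam1 at 0.40 on the log2 scale, and only Sele and Vcam1 stayed separated (12.8% of genes tested on that scale were separated upwards).

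**Figure D4:**
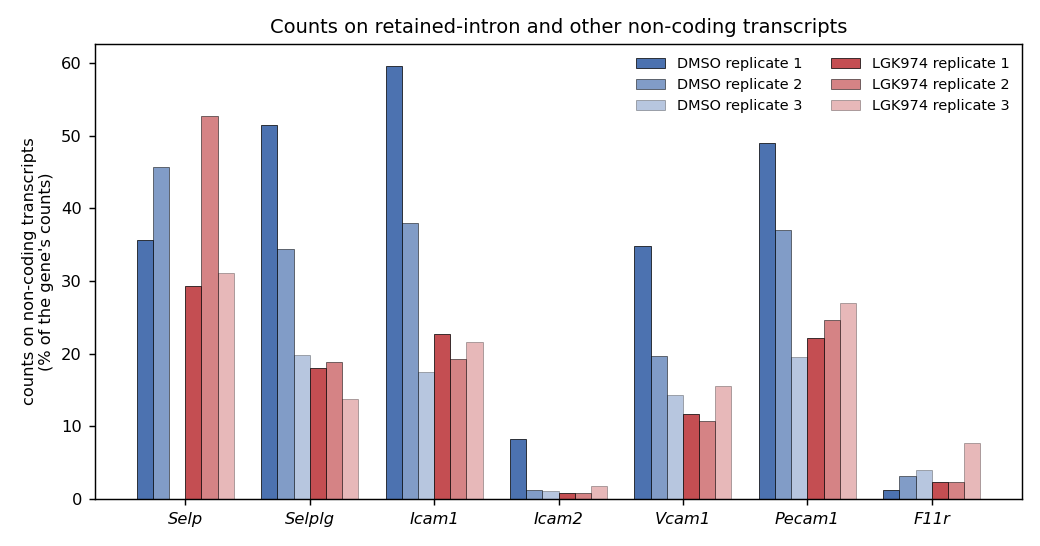
Share of a gene's estimated counts on transcripts annotated as retained intron or otherwise non-coding (vertical axis, percent, from 0) for the 7 adhesion genes that have such transcripts, in each of the 6 libraries (DMSO blue, LGK974 red, replicates in fading shades). DMSO replicate 1 has the tallest bar for Selplg, Icam1, Icam2, Vcam1 and Pecam1, reaching 59.7% for Icam1.

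Among coding transcripts, that of 3469 bases held 54.3 to 75.7% of the TPM (a level scaled to transcript length and library) of Vcam1, and that of 2532 bases held 8.10 to 13.7%. The Cdh5 transcript of 3995 bases held 85.8 to 90.3%. Pecam1 was divided among more forms, with 26.0 to 39.8% on a transcript of 3233 bases, 7.61 to 16.7% on one of 3283 bases and 0.258 to 20.01% on one of 3441 bases. These are shares of the TPM of all transcripts of a gene, coding or not. A retained-intron transcript of Pecam1, of 2142 bases, held 23.7 to 58.4%. Kallisto divides reads between transcripts that share exons, so such shares are estimates.

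Per length, Cdh5 and Pecam1 stood above the other 7 genes. Mean TPM over the 6 libraries was 57.7 ± 26.2 for Cdh5 (SD, n = 6), 48.7 ± 19.5 for Pecam1, 10.8 ± 5.47 for Selplg, 10.6 ± 6.34 for Vcam1, 8.02 ± 4.55 for Icam2, 7.54 ± 5.52 for F11r, 5.71 ± 2.61 for Icam1, 2.20 ± 1.84 for Selp and 1.29 ± 0.92 for Sele. The step from Pecam1 to Selplg held in 6 of 6 libraries, with a mean log2 ratio of 2.22 ± 0.28 (SD), as did those from Vcam1 to Icam2 (0.40 ± 0.191) and from Icam1 to Selp (1.62 ± 0.716). Other neighbours did not keep their order: Cdh5 was above Pecam1 in 5 of 6 libraries, Selplg above Vcam1 in 3, Icam2 above F11r in 5, F11r above Icam1 in 4 and Selp above Sele in 4.

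The partners of these molecules were read from lists. From each list the 3 genes with the smallest p-values in this comparison are named, so their differences are large partly by choice. Among integrins, CD44 and other counter-receptors on leukocytes, 13 of 15 genes were tested. Of these, 11 were higher and 2 lower with LGK974, and the median log2 fold change was 0.55. With edgeR 0 were called after adjustment. At an unadjusted p-value under 0.05, 5 were higher, against 6.26% of all tested genes. Separated upwards were 6, against 10.7% of all tested genes. Cd44, a hyaluronan receptor that also binds E-selectin, had 84.4 ± 8.36 against 44.8 ± 7.003 CPM (SD, n = 3 each), which differ by 0.91 on the log2 scale (SE 0.178). The integrin subunits Itgam and Itgb2, which form Mac-1, differed by 0.95 (SE 0.248) and 1.01 (SE 0.274) on the log2 scale. All 3 were higher in every LGK974 mouse, with an adjusted p-value of 0.368 each by edgeR's test. Itgb2 is itself one of the leukocyte markers. Those markers had a median log2 fold change of 0.96 in the same mice, and their part in this list was not tested.

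Enzymes that decorate selectin ligands with sugars and sulfate were tested for 12 of 13 genes, with 10 higher, 2 lower, a median of 0.25 and 0 at an unadjusted p-value under 0.05. The median was 0.11 without DMSO replicate 1 and 0.43 without DMSO replicate 3. St3gal4, a sialyltransferase, was at 14.8 ± 0.91 against 11.5 ± 2.10 CPM (log2 fold change 0.37). Chst2 and C1galt1c1 had log2 fold changes of 0.59 and 0.41 with overlap. Of 22 other junction and adhesion genes 21 were tested, 12 higher and 9 lower, with a median of 0.03. Of these, 3 were separated upwards and 1 downwards, against 10.7% and 7.27% of all tested genes. Alcam, an adhesion molecule of the immunoglobulin family, was at 14.7 ± 1.88 against 9.66 ± 1.81 CPM (log2 fold change 0.61), and Cd47 had 0.30. Ocln, the gene of occludin, was at 0.707, 0.485 and 0.344 CPM under LGK974 and 2.79, 1.01 and 0.884 CPM under DMSO. It was lower in every LGK974 mouse, and its highest value was that of DMSO replicate 1, the library with the highest background.

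All 18 genes of the NF-κB pathway and its feedback were tested, with 13 higher, 5 lower and a median of 0.28. Of these, 4 were higher and 0 lower at an unadjusted p-value under 0.05, and 7 were separated upwards, where 6.26% of all tested genes were higher at that level and 10.7% separated upwards. Leukocyte markers (median 0.96, 14 of 15 separated upwards) and fibroblast markers (median 0.54, 5 of 10) were higher in the same mice, and their part in this list was not tested. Il1r1, the interleukin-1 receptor, was at 51.1 ± 4.48 against 33.3 ± 4.65 CPM (log2 fold change 0.62, standard error 0.165). Tnfrsf1b, a TNF receptor, and Nfkb2, a subunit of NF-κB, had log2 fold changes of 0.64 and 0.69. Among 5 genes of shedding proteases and cytoskeletal linkers, 4 were higher and the median was 0.46. The proteases Adam17 and Adam10, which cut adhesion molecules from the cell surface, were at 44.8 ± 3.84 against 32.5 ± 3.001 CPM and 91.5 ± 8.53 against 66.2 ± 9.88 CPM. Msn, which links adhesion molecules to actin, was at 431 ± 104 against 275 ± 41.0 CPM. Chosen by their small p-values, all 3 were separated upwards, with log2 fold changes of 0.46, 0.47 and 0.65. No gene in these 5 lists was called by edgeR after adjustment, and DESeq2 called 2, both among the counter-receptors.

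The genes most like each member over the 6 libraries were found among 15524 others with a mean of at least 1 CPM, by Pearson's r of log2 CPM. For Sele they were Fam114a1, Loxl3 and Piezo1, with r of 0.998, 0.996 and 0.994. For Vcam1 they were Rsad2, Snrpg and Stk16 (0.993, 0.993 and 0.991), for Icam1 Rad18, Pif1 and Lrrc49 (0.996, 0.988 and 0.986), and for Cdh5 Grb2, Prdm2 and Tulp4 (0.995, 0.993 and 0.99). Selplg was closest to Snrpd1, Pla2g15 and Ufm1 (0.994, 0.993 and 0.991) and Selp to Dna2, Erg28 and Plaur (0.993, 0.986 and 0.983). Icam2 was close to Myo1d and Arf6 (0.994 each), Pecam1 to Rnf5, Rflnb and Pqlc2 (0.993, 0.991 and 0.981) and F11r to Hist1h3a, Fscn1 and Tcof1 (0.999, 0.998 and 0.996). With 6 points that share libraries, high values were reached by many genes for some members and by fewer for others. An r above 0.95 was found in 323 genes for Sele, 208 for Icam2, 165 for F11r, 152 for Vcam1 and 147 for Selplg. For Cdh5 there were 80 such genes, for Icam1 and Pecam1 31 each, and for Selp 29.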

How the data were processed

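RNA sequencing of infarct tissue from 6 mice, 3 given LGK974 and 3 given DMSO, was analysed. Per the labels, ribosomal RNA was depleted with RiboZero and libraries were made with the TrueSeq RNA Access kit, which enriches by capture; how both were combined is not given in the sources used here. The authors quantified transcripts with Kallisto (version not given in the sources used here) on Ensembl transcripts of GRCm38, and the deposited tables list 118489 transcripts with their estimated counts and TPM values. The TPM values, which the authors scaled to transcript length and library, served for levels between genes and for 1 alternative fit.

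Estimated counts were joined to genes with GENCODE M21 (98.6% of transcripts), summed and rounded. The test took genes reaching 10 counts in 3 or more libraries and was run with edgeR 4.0.16 (R 4.3.3; quasi-likelihood test, TMM scaling, treatment as the only factor, Benjamini-Hochberg adjustment over all tested genes, threshold 0.05). DESeq2 1.42.0 and limma 3.58.1 (voom) served as alternatives. Ratios to marker genes used log2(CPM + 0.5) and a two-sided exact permutation test. Other steps ran in Python 3.11.15 with SciPy 1.17.1. The statistical scripts were tested on simulated data. There edgeR and limma-voom missed changes even somewhat larger than those of the members in the main fit, and many of DESeq2's calls were false.

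The members and gene lists were chosen with earlier results of these data known. Besides the members, genes named were the 3 with the smallest p-values in each of 5 partner lists, up to 2 of the most abundant markers of a cell type, and the genes most like each member over the 6 libraries. One gene that this rule names is not reported here. Motifs, and the fits on protein-coding transcripts and on counts less background, were chosen after the values were seen.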

Additional observations from a re-analysis of the deposited data

How the results depend on the processing

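Under 19 alternatives, 6 of which left out one mouse each, 0 of the 9 adhesion genes were called after adjustment, whether with edgeR, DESeq2 or limma-voom. This says nothing about stability. In simulated data edgeR and limma-voom called none of the genes changed by 1 on the log2 scale. That size is above the main-fit value of any of the 9, the largest being 0.74 for Selp. In the alternatives Sele reached 1.30 and Selp 1.05. Over all genes, 315 were called with DESeq2, 1206 without a filter on low counts and 0 in the other fits on all mice; with one mouse left out the count was 0 to 2, the 2 without DMSO replicate 1. Of the 9 genes, 7 kept a positive log2 fold change throughout. Cdh5 was at −0.028 with at least 1 CPM in 3 libraries, −0.052 on protein-coding transcripts, −0.11 with background subtracted and −0.15 to 0.32 with one mouse left out, and Pecam1 was at −0.018 with at least 1 CPM and −0.11 with background subtracted. The cause was not tested. The median of all genes moved from −0.75 with DESeq2, which keeps genes with few counts, to 0.02 without DMSO replicate 3. All 9 genes lay above that median in 17 alternatives, 8 did without DMSO replicate 1 and 7 with background subtracted. Relative to endothelial markers, the difference with one mouse left out was 0.34 to 0.48 for Vcam1, 0.34 to 0.68 for Sele, −0.14 to 0.028 for Pecam1 and −0.13 to 0.049 for Cdh5; for Selplg it was −0.53 with leukocyte markers as the reference. Medians of marker lists moved with single mice and settings. With one mouse left out they were −0.59 to −0.16 for cardiomyocyte (highest without DMSO replicate 3), −0.62 to −0.27 for mesothelial, −0.04 to 0.28 for endothelial, −0.06 to 0.37 for mural, −0.22 to 0.35 for neutrophil, −0.37 to −0.14 for platelet, −0.22 to 0.17 for lymphatic and 0.37 to 0.74 for fibroblast markers, and −0.09 to 0.26 for other junction genes. The mesothelial median was 0.58 with background subtracted and −0.84 with at least 1 CPM. Replicate numbers 1 to 3 occur in both groups but are not said to pair the samples. Deviations of same-numbered mice correlated at −0.0446 to 0.477 (3 pairs, mean 0.284). Those of differently numbered mice correlated at −0.531 to 0.157 (6 pairs, mean −0.141). A fit that added the replicate number as a block called 0 genes after adjustment and 3312 before it (2699 without the block), and the block changed no call of an adhesion gene. Depth limits Sele and Selp most, with 67 to 446 counts per library.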
